A study of Mus musculus with 8 samples.

Results

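The surface proteins by which mouse bone marrow progenitors are sorted or subdivided were followed at the RNA level in cells with and without Cbfb. The set of 8 genes comprised Kit, Ly6a (Sca-1), Cd34, Fcgr2b and Fcgr3 (CD32 and CD16), Slamf1 (CD150), Cd48 and Ptprc (CD45). A gene entered through the row of the array table whose platform annotation gives its symbol alone. This held for 7 of the 8 genes, with 1 row each, among 21789 rows (19938 genes) with a single symbol; Ly6a was not analysed here. The genes were chosen by name, with earlier results of these data known.

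The mice were 7 weeks old, C57BL6 after 12 backcrosses and 2 per genotype; each sample held some 200000 sorted cells, more than 98% pure. Knockout (KO) mice carried Vav1-iCre, a Cre recombinase driven by a gene active in blood cells, and 2 floxed Cbfb alleles, written Vav1-iCre x Cbfb(F/F). Control (Het) mice, Vav1-iCre x Cbfb(F/+), had this Cre too and kept 1 intact Cbfb allele beside a floxed one. All 8 arrays therefore come from Cre-bearing animals with at least 1 floxed allele, and no wild type was measured. LSK cells, in which blood stem cells are found, and GMP, progenitors of granulocytes and macrophages, were each taken from Het and KO mice, giving 4 groups of 2 Affymetrix Mouse Gene 1.0 ST arrays. The labels name the 2 arrays of each group biological replicates but link no array with a mouse, so a p-value reflects only how far these arrays spread, which may be technical.

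The letters LSK stand for lineage-negative, Sca-1-positive and Kit-positive. GMP are usually sorted as lineage-negative, Sca-1-negative and Kit-positive cells with CD34 and a high signal for CD16 and CD32, which share 1 antibody. CD150 and CD48 usually subdivide the LSK gate, since long-lived stem cells carry CD150 and lack CD48, and CD45 marks nearly all blood cells except mature red cells and platelets. Cbfb encodes CBF-beta, which binds no DNA itself and strengthens DNA binding by RUNX proteins. The antibodies and gates used on these mice were not given in the sources used here. A sort fixes a range of surface protein and not of RNA, so the question here was whether the RNA of these markers differed between genotypes among cells that passed the same gate.

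Promoter stretches were read for the genes with the largest differences, Slamf1 and Fcgr2b, and for the neighbours Cd48 and Fcgr3, because Cbfb acts through RUNX factors, which bind such letters; the genes and letters were chosen after the expression values were seen. All 7 genes matched RefSeq promoters (GRCm38.p6). The 250 bases before each start were searched on both strands for the RUNX letters TGTGGT and TGCGGT and for the GATA letters AGATAA and TGATAA; none of these overlaps another in the stretches below. Each stretch is written 5′ to 3′ on the gene's own strand, with matches in capitals.
Slamf1, chr1:171766882-171767131, plus strand: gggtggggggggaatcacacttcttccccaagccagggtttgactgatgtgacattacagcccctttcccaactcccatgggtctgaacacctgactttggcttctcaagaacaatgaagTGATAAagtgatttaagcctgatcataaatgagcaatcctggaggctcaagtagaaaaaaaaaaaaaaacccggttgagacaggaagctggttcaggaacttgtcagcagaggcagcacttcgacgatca
Cd48, chr1:171681742-171681991, plus strand: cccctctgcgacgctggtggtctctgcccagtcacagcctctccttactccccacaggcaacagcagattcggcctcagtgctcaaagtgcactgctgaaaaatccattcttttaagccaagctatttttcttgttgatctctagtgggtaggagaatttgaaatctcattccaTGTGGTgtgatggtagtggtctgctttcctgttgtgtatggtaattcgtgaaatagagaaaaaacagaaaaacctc
Fcgr2b, chr1:170976072-170976321, minus strand: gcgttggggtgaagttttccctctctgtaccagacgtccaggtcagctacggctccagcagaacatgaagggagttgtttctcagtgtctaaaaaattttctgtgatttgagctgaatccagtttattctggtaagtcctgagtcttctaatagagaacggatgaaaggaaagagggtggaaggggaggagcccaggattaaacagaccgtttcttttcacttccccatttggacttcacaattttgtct
Fcgr3, chr1:171059404-171059653, minus strand: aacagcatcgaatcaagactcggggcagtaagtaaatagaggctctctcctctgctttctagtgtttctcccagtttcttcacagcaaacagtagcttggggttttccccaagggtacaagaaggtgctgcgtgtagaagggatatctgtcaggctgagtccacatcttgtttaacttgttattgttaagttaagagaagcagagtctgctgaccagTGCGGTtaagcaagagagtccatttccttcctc
The Cd48 stretch holds TGTGGT 76 bases before the start, and the Fcgr3 stretch holds TGCGGT 33 bases before it. Another annotated start of Fcgr3, not printed, has the same letters 42 bases before it. The Slamf1 stretch holds TGATAA 130 bases before the start. No searched letters stood in the Fcgr2b stretch, nor in those of Kit and Cd34, while 1 of the 2 Ptprc stretches held AGATAA and TGATAA. Among 32851 RefSeq promoter stretches of this length, 14% hold TGTGGT, 5.1% TGCGGT, 9.99% AGATAA and 7.94% TGATAA. A match describes the letters and shows no binding.

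The genotype was checked first. Cbfb stood at 7.56 and 7.55 in Het LSK, 6.93 and 6.98 in KO LSK, 7.53 and 7.65 in Het GMP, and 6.49 and 6.96 in KO GMP, all log2 expression values. In GMP it fell (-0.86, limma's adjusted p = 0.013); in LSK the difference of -0.60 did not pass (adjusted p = 0.0557), though no KO array reached a Het array in either cell type. The LSK difference passed in 4 of 17 alternatives: with the filter on low values (adjusted p = 0.0347), trend and robust variance (0.0325), or either KO GMP array removed. It did not pass in the other 13, among them all rows tested (adjusted p = 0.138) and array medians subtracted (0.107). That GMP call did not survive the removal of either Het GMP array (adjusted p = 0.0689 and 0.104) or of the first KO GMP array (0.0755). Which part of the gene is deleted was not stated, and probes may lie outside it. Over the rows with a single symbol, Pearson's r between arrays was 0.990 to 0.995 inside a group and 0.955 to 0.983 across groups. All differences below are KO minus Het on the log2 scale with limma's SE and 95% confidence interval, and p-values are limma's, adjusted by Benjamini-Hochberg over the 21789 rows. With 2 arrays a side, the smallest p an exact two-sided permutation test allows is 0.333.

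In KO LSK, 4 of the 7 measured markers rose and 0 fell (0 were lower at an unadjusted p under 0.05). They were Fcgr2b, Slamf1, Cd48 and Fcgr3, while Kit, Cd34 and Ptprc did not pass. Over all rows 7.73% were called in this comparison, 3.02% higher and 4.71% lower. The groups did not overlap for 6 of the 7 (5 higher, 1 lower), as for 45.5% of all rows (22.8% higher and 22.7% lower). In KO GMP, Slamf1 and Fcgr2b rose and 0 markers fell (1, Fcgr3, was lower at an unadjusted p under 0.05), against 6.02% of all rows called, 3.45% higher and 2.57% lower. Again 6 of the 7 did not overlap (5 higher, 1 lower), as for 51.3% of all rows (23.4% higher and 27.9% lower). The median difference of the 7 markers was 1.07 in LSK and 0.59 in GMP, beside medians of 0.010 and -0.017 over all rows. The same shares of called rows stand beside the counts of the gene lists below. Counts at an unadjusted p have no such share here, so they do not show whether a list is unusual. In these bulk samples a change in the share of cells of a type and a change in RNA per cell cannot be told apart.

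**Figure D1:**
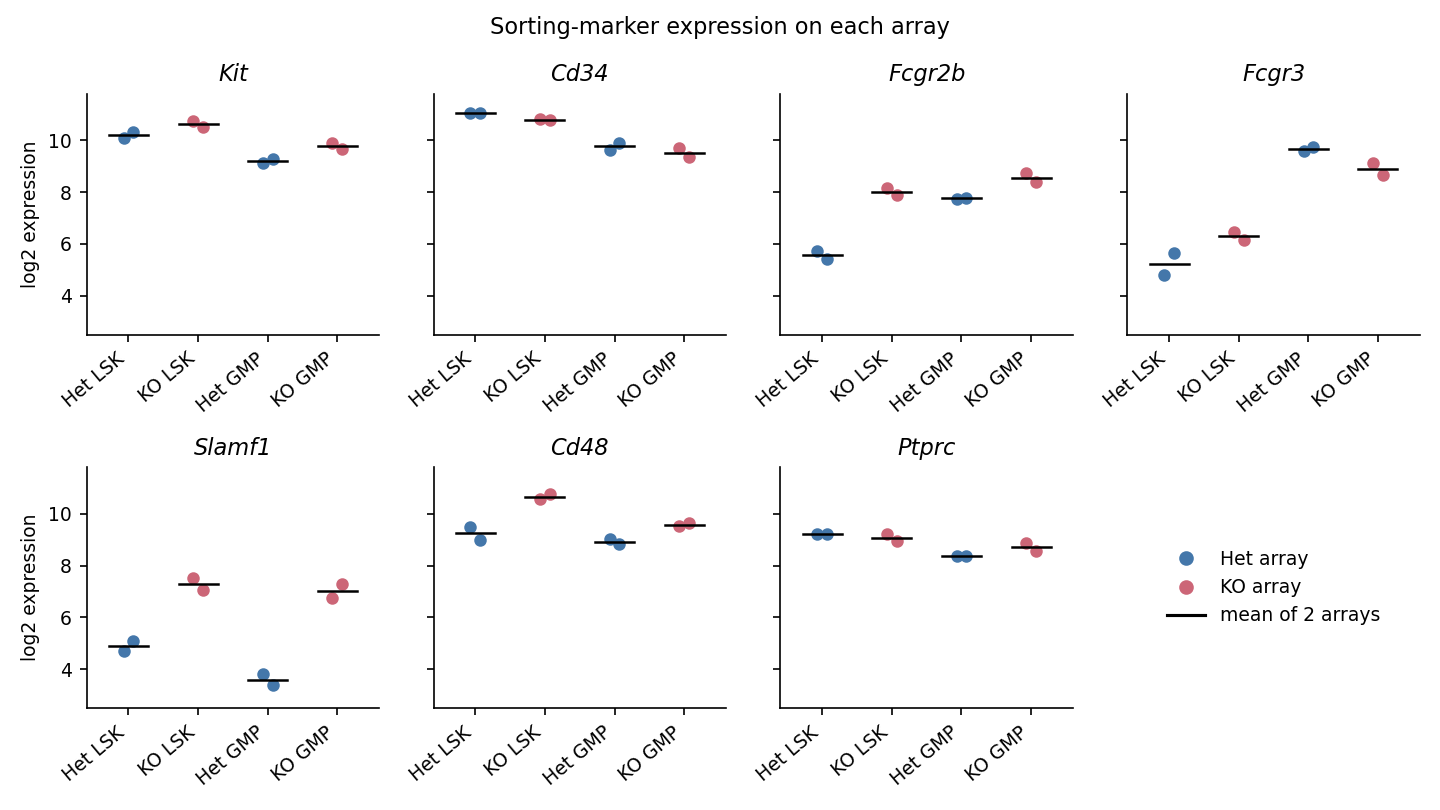
Log2 expression (vertical axis, the same in each panel) of the 7 measured markers on the 8 arrays; dots are single arrays, blue for Het and red for KO, and black lines are means of 2 arrays. Slamf1 and Fcgr2b lie higher on both KO arrays than on both Het arrays in LSK and in GMP, while the Fcgr3 dots are above Het in KO LSK and below it in KO GMP.

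Kit, the receptor for stem cell factor and the K of LSK, is required of both populations. Its log2 expression was 10.08 and 10.30 in Het LSK, 10.76 and 10.50 in KO LSK, 9.14 and 9.26 in Het GMP, and 9.90 and 9.67 in KO GMP. Both KO arrays lay above both Het arrays in each cell type and every LSK array lay above every GMP array. The difference was 0.44 in LSK (SE 0.15, 95% interval 0.10 to 0.78, adjusted p = 0.132) and 0.59 in GMP (SE 0.15, 95% interval 0.25 to 0.93, adjusted p = 0.0548), so neither passed. The GMP difference minus the LSK difference was 0.15 and did not pass (0.15, 95% interval -0.33 to 0.63, adjusted p = 0.857). The GMP difference passed in 6 of 17 alternatives: with the filter on low values (adjusted p = 0.0298), only the groups compared (0.0427), trend and robust variance (0.0152), the mouse as a random block (0.048), and once either KO LSK array was removed (0.0389), whose spread enters the shared estimate. As a description of the gates, GMP minus LSK was -0.99 for Kit in Het and -0.84 in KO.

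Of 20 measured genes of Kit signalling, 0 rose and 1 fell in KO LSK (5 higher and 3 lower at an unadjusted p under 0.05), and 1 rose and 0 fell in KO GMP (5 and 3). The one that fell was Sh2b2, an adaptor of Kit and other receptor kinases, with a difference of -0.92 (SE 0.15, adjusted p = 0.00569). Fyn, a Src family kinase, rose in GMP from 4.79 ± 0.10 to 6.68 ± 0.25 (SD, n = 2; 1.89, SE 0.17, adjusted p = 0.000279). The median difference of these genes was -0.001 in LSK and 0.13 in GMP, close to that of all rows in LSK. Kitl, the ligand gene itself, differed by 0.03 in LSK and -0.16 in GMP without passing.

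Cd34, a sialomucin of progenitors and endothelium, separates GMP from the more erythroid progenitors within the Kit-positive gate. It stood at 11.05 and 11.04 in Het LSK, 10.81 and 10.78 in KO LSK, 9.63 and 9.89 in Het GMP, and 9.71 and 9.33 in KO GMP. The KO arrays lay below the Het arrays in LSK and overlapped them in GMP. The difference was -0.25 in LSK (SE 0.15, 95% interval -0.59 to 0.10, adjusted p = 0.436) and -0.24 in GMP (SE 0.15, 95% interval -0.58 to 0.10, adjusted p = 0.498). Each interval runs from a fall of more than 0.5 log2 units to a small rise. The GMP level was lower than the LSK level by a similar amount in both genotypes, with a difference of -1.28 in Het and -1.28 in KO.

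The relatives of Cd34 were tested alongside it. Podxl, the podocalyxin gene of the same sialomucin family, rose in LSK (1.92, SE 0.28, adjusted p = 0.00315) and in GMP (2.26, SE 0.28, adjusted p = 0.00149). Emcn, another endothelial sialomucin gene, rose in GMP from 3.59 ± 0.09 to 5.95 ± 0.04 (SD, n = 2; adjusted p = 3.74e-05). Selplg, the selectin ligand PSGL-1, fell in both, with differences of -0.66 (adjusted p = 0.0197) and -1.05 (adjusted p = 0.00203). The LSK call of Selplg ended on removal of either Het LSK array (adjusted p = 0.1 and 0.0939) or the second KO LSK array (0.0712). Among the 7 measured genes of this list KO LSK had 1 call up and 1 down, and KO GMP 2 up and 1 down, with medians of -0.16 and -0.11. Whether the differences of Podxl and Cd34 differ from each other was not tested.

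Fcgr2b encodes the inhibitory IgG receptor CD32, and its RNA showed the largest LSK difference of the 7 markers. It stood at 5.72 and 5.43 in Het LSK, 8.14 and 7.89 in KO LSK, 7.74 and 7.78 in Het GMP, and 8.73 and 8.38 in KO GMP. The KO LSK arrays lay above the Het GMP arrays, and the KO GMP arrays were highest. Fcgr2b rose by 2.44 in LSK (SE 0.17, 95% interval 2.07 to 2.82, adjusted p = 5.6e-05), a 5.44-fold difference of the values. In GMP it rose by 0.80 (SE 0.17, 95% interval 0.43 to 1.17, adjusted p = 0.0222), a 1.74-fold difference. This GMP call ended on removal of either Het GMP array (adjusted p = 0.147 and 0.112) or the first KO GMP array (0.163), and with all rows tested (0.0919). The effect in GMP was smaller than that in LSK by 1.64 (difference -1.64, SE 0.23, adjusted p = 0.00873), in a comparison where 2.29% of all rows were called (1.69% higher, 0.601% lower).

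Fcgr3 encodes the activating IgG receptor CD16, and its values went in opposite directions in the 2 cell types. It stood at 4.79 and 5.66 in Het LSK, 6.45 and 6.14 in KO LSK, 9.58 and 9.74 in Het GMP, and 9.12 and 8.67 in KO GMP. The groups did not overlap in either cell type, and the widest gap between replicates was that of Het LSK. Fcgr3 rose by 1.07 in LSK (SE 0.27, 95% interval 0.45 to 1.68, adjusted p = 0.0465). In GMP the difference was -0.77 (SE 0.27, 95% interval -1.38 to -0.15, adjusted p = 0.168) and did not pass, except with only the groups compared in the fit (adjusted p = 0.0457). The GMP effect minus the LSK effect was -1.84 (SE 0.38, adjusted p = 0.047). Both calls are close to the threshold: each was lost when any of 7 arrays was left out, with adjusted p of 0.0529 to 0.205 in LSK and 0.0648 to 0.163 for the difference between cell types, and kept without Het LSK replicate 2. Those arrays were both Het GMP, both KO GMP and both KO LSK arrays and Het LSK replicate 1, and the LSK difference was 0.63 without Het LSK replicate 1 and 1.5 without replicate 2.

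Together these receptors give the Fc axis on which GMP are gated. In Het, GMP exceeded LSK by 4.43 for Fcgr3 and 2.18 for Fcgr2b; in KO the steps were 2.60 and 0.54. These steps follow the gate and carry no test. Fcgr3 in KO GMP still lay above both LSK groups on every array. The antibody used for this axis commonly binds both proteins, whose outer domains are closely alike, and array probes may also pick up RNA of the other gene; this was not tested. The measured values moved apart in GMP, where Fcgr2b was higher and Fcgr3 lower on both KO arrays.

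The signalling chain of the activating receptors was measured as well. Fcer1g, the common gamma chain that CD16 needs to reach the surface and signal, fell in both cell types. It went from 8.68 ± 0.05 to 7.61 ± 0.26 in LSK (SD, n = 2; adjusted p = 0.00793) and from 10.27 ± 0.08 to 8.25 ± 0.35 in GMP (adjusted p = 0.000296). Removing Het LSK replicate 2 ended the LSK call (adjusted p = 0.0575). Of the 9 measured genes around the Fc gamma receptors, Fcgr2b and Fcgr3 included, 2 rose and 2 fell in LSK. The 2 that rose were Fcgr2b and Fcgr3 themselves. Those that fell were Fcer1g and Fcrl1, a receptor-like gene of B cells that differed by -1.39 (adjusted p = 0.000131). Fcrl1 was dim, with means of 4.6 in Het LSK and 3.212 in KO LSK, and the filter on low values left 1 fall. In GMP 1 rose, again Fcgr2b, and 1 fell, again Fcer1g. The list medians were 0.26 in LSK and -0.024 in GMP. Fcgr4, which lies between Fcgr2b and Fcgr3 on chromosome 1, differed by 0.03 in LSK and 0.47 in GMP (adjusted p = 0.949 and 0.162), and Fcgr1 by 0.29 and -0.024 (adjusted p = 0.435 and 0.97).

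Slamf1 encodes CD150, a receptor that binds itself on neighbouring cells and marks stem cells and progenitors of the platelet and red cell lineages. Its RNA stood at 4.72 and 5.08 in Het LSK, 7.54 and 7.07 in KO LSK, 3.80 and 3.39 in Het GMP, and 6.74 and 7.29 in KO GMP. The 4 KO arrays all lay above the 4 Het arrays. Slamf1 rose by 2.40 in LSK (SE 0.24, 95% interval 1.85 to 2.95, adjusted p = 0.000399) and by 3.42 in GMP (SE 0.24, 95% interval 2.87 to 3.96, adjusted p = 7.78e-05), which are 5.28-fold and 10.7-fold differences of the values. Both calls and directions held in all 17 alternatives run. All 4 Het values lay below the median of their arrays (5.07 and 5.09 in LSK, 4.93 and 4.92 in GMP), where the array understates changes, so this limit touches both folds. The effects in GMP and LSK differed by 1.01 (SE 0.34, 95% interval 0.24 to 1.79), which did not pass (adjusted p = 0.22).

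Slamf1 is not part of either gate, so its step from LSK to GMP could be tested, in Het between values that are both below the array medians. In Het it was lower in GMP, with a difference of -1.30 (SE 0.24, adjusted p = 0.00578), in a comparison where 17.5% of all rows were called, 7.9% higher and 9.6% lower; the groups did not overlap for 57.9% of rows (29.7% higher, 28.2% lower). Removing the second Het GMP array (adjusted p = 0.0532) or the second Het LSK array (0.0542) ended the call. In KO the step was -0.29 (SE 0.24, 95% interval -0.84 to 0.26, adjusted p = 0.58), and the KO GMP arrays overlapped the KO LSK arrays. In KO 6.05% of all rows were called in this step, 3.66% higher and 2.39% lower, and 47.5% did not overlap (21.5% higher, 26% lower).

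Cd48 encodes the GPI-anchored partner of CD244, and most stem cells lack it while multipotent and committed progenitors carry it. It stood at 9.48 and 9.0 in Het LSK, 10.55 and 10.75 in KO LSK, 9.01 and 8.83 in Het GMP, and 9.53 and 9.62 in KO GMP. Both KO arrays exceeded both Het arrays in each cell type, and KO LSK was the highest group. Cd48 rose by 1.42 in LSK (SE 0.17, 95% interval 1.03 to 1.80, adjusted p = 0.00107), a 2.67-fold difference that kept its call in all 17 alternatives. In GMP the difference was 0.66 (SE 0.17, 95% interval 0.27 to 1.04, adjusted p = 0.0592), which did not pass. It passed in 6 of 17 alternatives: after quantile normalization (adjusted p = 0.0313), with the filter on low values (0.0354), only the groups compared (0.0222), trend and robust variance (0.022), and once either Het LSK array was removed (0.0301). The effects differed by -0.76 between GMP and LSK (95% interval -1.30 to -0.21, adjusted p = 0.187). From LSK to GMP the difference was -0.32 in Het (adjusted p = 0.262) and -1.07 in KO (adjusted p = 0.00673); the latter was lost without KO GMP replicate 1 (adjusted p = 0.0577).

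CD150 and CD48, used together to subdivide the LSK gate, both had higher RNA in KO LSK. Their family lies mostly in 1 stretch of chromosome 1 in the order Cd244a, Ly9, Slamf7, Cd48, Slamf1, Cd84 and Slamf6. Between Cd48 and Slamf1 lies 1 other coding gene (GRCm38.p6, used here for gene order and promoter stretches only). The neighbours did not follow a common direction. Cd244a, which encodes the receptor for CD48, fell by 2.42 in LSK, from 7.10 ± 0.24 to 4.67 ± 0.31 (SD, n = 2; adjusted p = 6.67e-05). In GMP Cd244a fell by 0.83 (adjusted p = 0.0235), a call lost when any of the 4 GMP arrays was left out (adjusted p from 0.117 to 0.145). Slamf7 (-1.12, adjusted p = 0.000413) and Slamf6 (-1.16, adjusted p = 0.00585, lost without Het LSK replicate 2 at 0.0525) fell in LSK. Ly9 differed by -0.004 in LSK and -0.002 in GMP, with SE 0.12 in each.

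Cd84, next to Slamf1, rose in GMP (0.90, SE 0.18, adjusted p = 0.0204), a call lost without any one of the 4 GMP arrays (adjusted p from 0.0776 to 0.162), and differed by 0.62 in LSK (adjusted p = 0.086). The adaptor gene Sh2d1b1 fell in LSK (-0.86, adjusted p = 0.012) and in GMP (-2.59, adjusted p = 5.31e-05), and Sh2d1a, which encodes the adaptor SAP, fell in LSK (-0.69, adjusted p = 0.0145). The LSK calls were lost without Het LSK replicate 1 for both (adjusted p = 0.0897 and 0.097), without KO LSK replicate 2 for Sh2d1b1 (0.059), and without Het LSK replicate 2 (0.055) or KO LSK replicate 1 (0.058) for Sh2d1a. Counting Slamf1 and Cd48, the 11 measured genes of the family gave 2 calls up and 5 down in LSK (median -0.69) and 2 up and 2 down in GMP (median -0.062). Of the 5 falls in LSK, 4 were in dim genes, whose Het LSK means were 4.73 for Slamf7, 4.34 for Slamf6, 3.6 for Sh2d1a and 3.38 for Sh2d1b1. The filter on low values, which needs a group mean above 4.99, removed those 4 and left 1 fall, that of Cd244a; with all rows tested there were 3.

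**Figure D2:**
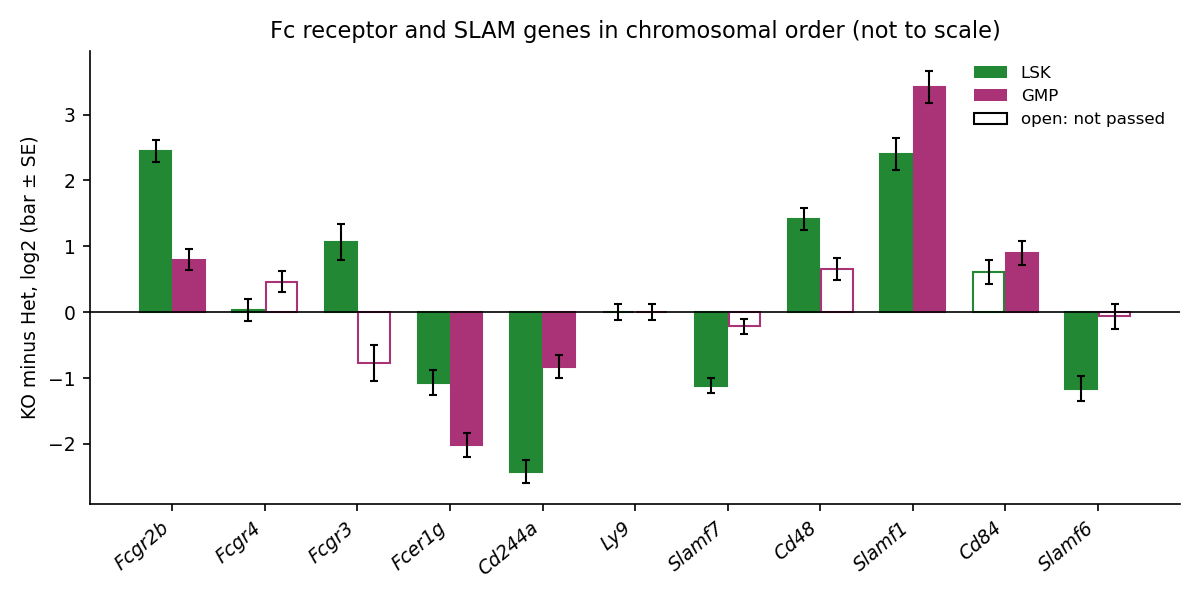
KO minus Het difference (log2, bars with limma SE) in LSK (green) and GMP (purple) for Fc receptor and SLAM family genes, placed in their order on chromosome 1 and not to scale; filled bars passed at an adjusted p under 0.05. Slamf1 and Cd48 rose in LSK while Cd244a, Slamf7 and Slamf6 beside them fell, and Fcer1g fell where Fcgr2b rose.

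Ptprc encodes CD45, a transmembrane phosphatase that activates Src family kinases. It stood at 9.20 and 9.23 in Het LSK, 9.21 and 8.93 in KO LSK, 8.35 and 8.38 in Het GMP, and 8.86 and 8.55 in KO GMP. The genotypes overlapped in LSK, and both KO arrays lay above both Het arrays in GMP. The difference was -0.14 in LSK (SE 0.15, 95% interval -0.47 to 0.19, adjusted p = 0.683) and 0.34 in GMP (SE 0.15, 95% interval 0.01 to 0.67, adjusted p = 0.282). Ptprc was lower in Het GMP than in Het LSK (-0.85, SE 0.15, adjusted p = 0.00391), and in KO the step was -0.37 (95% interval -0.70 to -0.04, adjusted p = 0.205). The array summarises all isoforms of the gene, so CD45 forms such as B220 were not told apart.

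Around CD45, 0 of 10 measured genes rose and 3 fell in LSK (1 higher and 4 lower at an unadjusted p under 0.05), and 2 rose and 0 fell in GMP (6 and 0). Ptprcap, the CD45-associated protein, fell in LSK from 8.81 ± 0.01 to 8.16 ± 0.08 (SD, n = 2; adjusted p = 0.0104), a call that needed both Het LSK arrays (adjusted p = 0.0634 and 0.059 without one). Ptprj, a related receptor phosphatase, fell by 0.76 (adjusted p = 0.0119), and this was lost without Het LSK replicate 2 (0.0766) or KO LSK replicate 2 (0.0504). The kinase gene Src fell by 0.57 (adjusted p = 0.0228), lost without Het LSK replicate 1 (0.0534) or 2 (0.145) or KO LSK replicate 1 (0.0767). In GMP, besides Fyn, the kinase gene Jak2 rose by 0.61 (adjusted p = 0.0183), lost when any GMP array was left out (0.0587 to 0.159). The list medians were -0.18 in LSK and 0.32 in GMP.

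**Figure D3:**
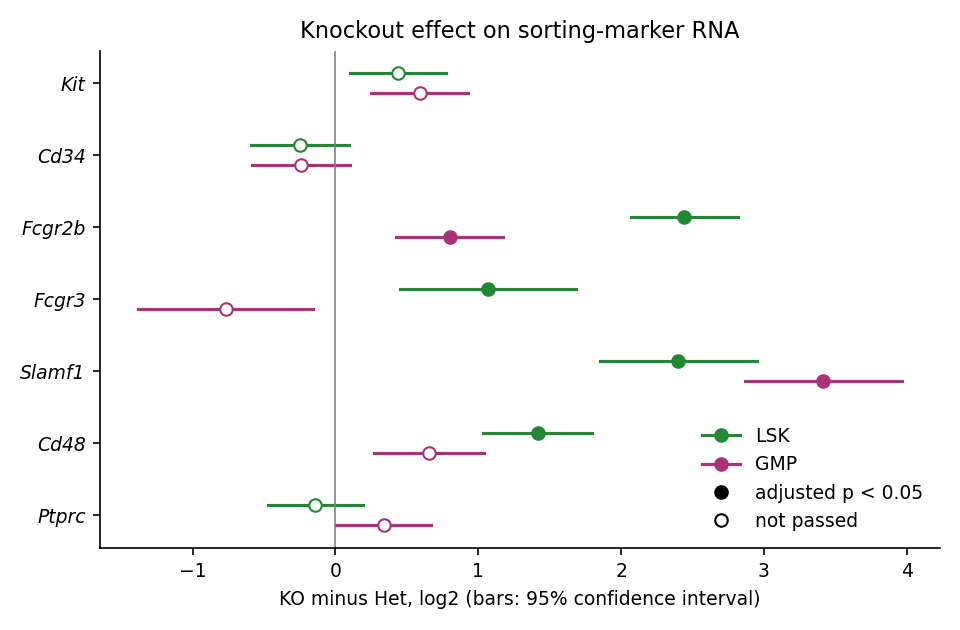
KO minus Het difference (horizontal axis, log2) of the 7 measured markers in LSK (green) and GMP (purple); lines are limma's 95% confidence intervals, and filled dots passed at an adjusted p under 0.05. The Slamf1 intervals lie farthest to the right in GMP (2.87 to 3.96), the Fcgr3 intervals fall on opposite sides of 0, and those of Cd34 span 0 in both cell types.

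Set side by side, the markers fell into distinct orders of the 4 groups. Fcgr3 ran from Het LSK through KO LSK and KO GMP to Het GMP, and Fcgr2b from Het LSK through Het GMP and KO LSK to KO GMP. Slamf1 ran from Het GMP through Het LSK to KO GMP and KO LSK, where the last pair overlapped. Cd48 ran from Het GMP through Het LSK, KO GMP and KO LSK, with the Het groups close (the lower Het LSK array just under the higher Het GMP array). For Kit the order was Het GMP, KO GMP, Het LSK and KO LSK, and for Cd34 KO GMP, Het GMP, KO LSK and Het LSK, with the GMP groups overlapping. Ptprc had the narrowest span of group means, at 0.85, against 1.43 for Kit, 1.52 for Cd34, 1.73 for Cd48, 2.98 for Fcgr2b, 3.70 for Slamf1 and 4.43 for Fcgr3.

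For the 6 markers whose group means spanned over 1 log2 unit, the genes with the most similar profile were found by the root mean square difference over the 8 arrays after each row was centred on its mean. Usp40 (0.065) and Rnf150 (0.081) were nearest to Kit, and Gm12250 (0.16) and H2-Oa (0.18) to Cd34. Chd7, a chromatin remodeller gene, was nearest to Fcgr2b (0.22), with group means of 5.82, 8.54, 8.81 and 9.44 in Het LSK, KO LSK, Het GMP and KO GMP, followed by Pstpip2 (0.40). The surface gene Prom1 (0.40) and the lectin gene Clec4a2 (0.43) were nearest to Fcgr3. Slc35d3 (0.23), a transporter-like gene, was nearest to Slamf1, with means of 6.05, 8.52, 4.53 and 8.35 in the same order, followed by the sialyltransferase gene St3gal6 (0.26). Cd302 (0.12) and Dse (0.17) were nearest to Cd48. Likeness was judged on the same 8 arrays and says nothing of shared control.

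Other surface markers used to subdivide these gates were set beside the 7 genes. Of 20 measured, 5 rose and 6 fell in KO LSK (median 0.20) and 9 rose and 4 fell in KO GMP (median 0.22). In LSK the fall was steepest for Flt3, the receptor of lymphoid-primed progenitors (-3.41, adjusted p = 0.000146), Thy1 (-3.01, adjusted p = 0.000187) and Procr, the stem cell marker EPCR (-2.27, adjusted p = 0.000422), besides Ly86 (-3.26, adjusted p = 0.00829, lost without Het LSK replicate 1 at 0.0713). Itga2b, the platelet integrin CD41, rose by 2.68 in LSK and 4.28 in GMP, and Tek, an angiopoietin receptor, by 2.48 and 3.25. Itgb3 rose by 1.87 and 3.45 and Esam by 1.51 and 2.67. Il7r, the interleukin 7 receptor, fell by 1.84 in LSK and rose by 2.03 in GMP, from 3.41 ± 0.01 to 5.44 ± 0.19 (SD, n = 2). The difference between its 2 effects, 3.87 (SE 0.38, adjusted p = 0.00225), was tested after its values were seen.

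**Figure D4:**
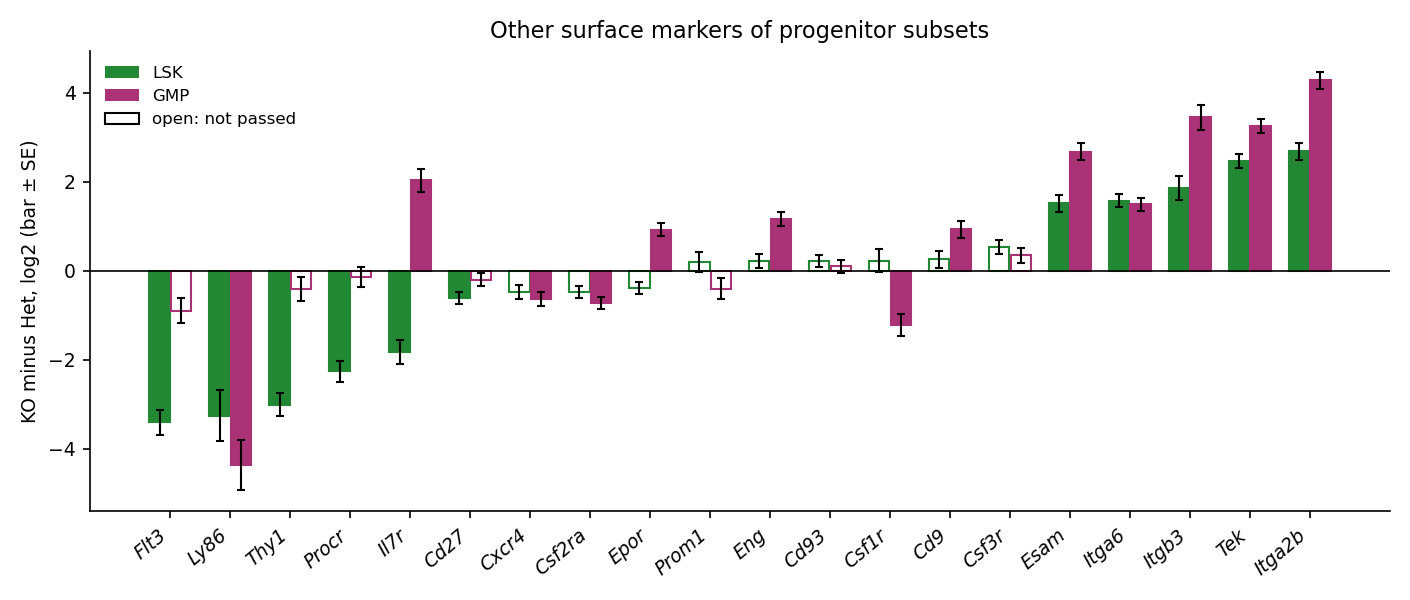
KO minus Het difference (log2, bars with limma SE) of 20 other surface marker genes in LSK (green) and GMP (purple), sorted by the LSK difference; filled bars passed at an adjusted p under 0.05. Flt3, Ly86 and Thy1 are at the low end in LSK, Tek and Itga2b at the high end, and Il7r points down in LSK and up in GMP.

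Lists of markers of other cell types were set beside the measured markers and did not share a common direction. The 11 measured genes of megakaryocytes and platelets gave 7 calls up and 1 down in KO LSK, and all 11 went up in KO GMP. The summed level of that list (log2 of the summed linear values) was 10.01 to 10.06 in Het LSK, 11.70 to 11.99 in KO LSK, 8.77 to 9.21 in Het GMP and 12.13 to 12.46 in KO GMP, the direction of Slamf1. For 13 mast cell, basophil and eosinophil genes, calls were 2 up and 1 down in LSK and 2 up and 4 down in GMP, with summed levels of 9.30 to 9.83 in Het LSK, 11.47 to 11.55 in KO LSK, 11.33 to 11.44 in Het GMP and 11.35 to 11.70 in KO GMP. That sum, like Fcgr2b, was lowest in Het LSK. For 13 monocyte, macrophage and dendritic cell genes, 7 fell in LSK and 10 fell in GMP, and the sum went from 10.52 to 10.56 in Het LSK to 8.97 to 9.0 in KO LSK, and from 11.45 to 11.54 in Het GMP to 9.67 to 10.28 in KO GMP. Fcgr3 was lower in KO GMP along with that list and higher in KO LSK against it. No row of these values is 0, since the summary gives every gene a level. The part of these cell types in the marker differences was not tested.

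The remaining lists were as follows. For 13 neutrophil granule genes the calls were 1 up and 1 down in LSK and 1 up and 0 down in GMP, and their sum was above 15 in all GMP arrays (15.07 to 15.45) and below 14 in all LSK arrays (12.91 to 13.99). Of 11 B cell genes, 9 fell in LSK and 0 changed by limma in GMP (2 lower at an unadjusted p under 0.05), with LSK sums of 11.51 to 12.02 in Het and 8.51 to 9.05 in KO. For 12 T and NK cell genes they were 1 up and 3 down in LSK and 1 each way in GMP. Their sum was nonetheless higher in KO, at 9.30 to 9.46 in Het LSK, 10.06 to 10.07 in KO LSK, 7.70 to 7.78 in Het GMP and 9.54 to 9.84 in KO GMP, the direction of Slamf1. The gene that rose was Lat, which couples the T cell receptor to its pathways, by 1.42 in LSK and 3.57 in GMP. Lat was the highest gene of the list in every group, so the sum mostly follows Lat. Its means were 8.444 in Het LSK, 9.869 in KO LSK, 5.865 in Het GMP and 9.437 in KO GMP. Thy1, Klrd1 and Klrb1c fell in LSK. Klrb1c was dim, with means of 2.695 in Het LSK and 2.103 in KO LSK, and the filter on low values left 2 falls. For 11 erythroid genes the calls were 2 up and 3 down in LSK and 4 up and 1 down in GMP, with sums of 10.36 to 10.69 in Het LSK, 9.48 to 9.55 in KO LSK, 9.56 to 9.68 in Het GMP and 9.78 to 9.95 in KO GMP. The part of these cells in the marker differences was likewise not tested. Of 11 genes of usual lineage depletion markers, 2 fell in LSK and 1 rose in GMP. The falls were those of Il7r and the dim Klrb1c, and the filter on low values left 1. Sums of this list were 8.58 to 8.72 in Het LSK, 7.63 to 8.15 in KO LSK, 8.28 to 8.67 in Het GMP and 8.05 to 8.23 in KO GMP.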

How the data were processed

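The authors deposited 1 table of 35556 rows with a log2 level for each of the 8 arrays; the submitters' processing notes name RMA, robust multichip averaging, as its source. RMA corrects background, brings arrays to a common distribution and summarises probes per transcript cluster; its version and the genome build were not given in the sources used here. It gives no detection call, understates changes of dim genes and hides a shift common to all transcripts. The design text describes amplification and biotin labelling before hybridisation, which can compress differences.

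Rows with exactly 1 platform gene symbol (21789) were tested; 1621 rows with several symbols and 12146 with none were not, except in 1 alternative. By Entrez number 21698 rows matched the reference table. Where a gene has several rows, the row with the highest mean stood for it. limma 3.58.1 (R 4.3.3) fitted 1 mean per group over all 8 arrays, with 4 residual and 4.83 prior degrees of freedom, and tests were two-sided with Benjamini-Hochberg adjustment and a threshold of 0.05. The fit was checked on simulated data. Kit, Cd34, Fcgr2b and Fcgr3 define the gates, so their LSK to GMP steps carry no test. The 7 measured members were all described, with up to 6 called genes per list and contrast, and not all of those are printed. Kitl, Fcgr1, Fcgr4 and Ly9 lie outside that rule and were added, after their values were seen, as ligand, relatives or neighbours of members. The members, gene lists, tests and alternatives were chosen with earlier results of these data known. Alternatives covered array scaling, rows tested, a filter on low values, the arrays and variance model in the fit, blocks and leaving out each array. Few arrays limit the precision.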

Additional observations from a re-analysis of the deposited data

Results flagged for a closer look

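The effect of the knockout on Fcgr2b differed between the cell types: it was smaller in GMP than in LSK by -1.64 on the log2 scale (SE 0.23, limma's adjusted p = 0.00873), and all 4 KO arrays were above the Het arrays of their cell type. With all rows of the table tested it did not pass (adjusted p = 0.0574).

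The effect on Fcgr3 also differed, with a difference of -1.84 (SE 0.38, adjusted p = 0.047): both KO arrays were higher than both Het arrays in LSK and lower in GMP. It was lost in 10 of 16 alternatives, with adjusted p up to 0.189.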

How the results depend on the processing

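Of 452 recomputed member differences (27 differences, each under 16 or 17 alternatives), 407 kept their call and direction, 28 lost the call, 13 gained one and 4 reversed; 17 of the 27 kept call and direction in every alternative run. The reversals were all of the Cd34 difference between cell types, 0.008 as reported: -0.13 with array medians subtracted, and -0.179 to 0.195 without 1 array, below 0 without Het GMP replicate 1, KO GMP replicate 1 or KO LSK replicate 2. With all rows of the table tested, 1 member passed in GMP and 0 by limma in the difference between cell types (4 at an unadjusted p under 0.05). In GMP 4 members passed with the filter on low values, 5 with only the groups compared and 4 with the trend and robust variance. The difference between cell types was passed by 1 member after quantile normalization. Without 1 array, 3 to 4 members passed in LSK, 1 to 3 in GMP, 1 to 2 in the difference between cell types, 1 to 2 of 3 between GMP and LSK in Het and 0 to 1 in KO (2 at an unadjusted p under 0.05 where it was 0). The cause was not tested.

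With the replicate number as a block, 3 members passed in LSK, 2 in GMP and 1 in the difference between cell types; the Fcgr3 calls were lost (adjusted p = 0.0651 and 0.0661), and 1570 and 1224 rows were called in LSK and GMP. Deviations of same-numbered arrays correlated at 0.13 and 0.18 within a genotype and -0.14 to -0.025 across genotypes. The positive values are those of LSK and GMP of 1 genotype, but the labels do not say whether same-numbered arrays share a mouse, so pairing is unknown. With the mouse as a random block (genotype and number), Kit in GMP passed (adjusted p = 0.048).

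Over all rows, calls numbered 1684 in LSK and 1312 in GMP; they were 1071 in LSK with only the groups compared, 784 in GMP with all rows tested, and 994 to 1614 and 634 to 1586 without 1 array. In the difference between cell types they were 499, and 182 with all rows tested; between GMP and LSK in KO 1318, and 756 with all rows and 691 with only the groups compared. Subtracting array medians moved the share of higher calls from 39.0% to 52.4% in LSK, from 73.7% to 58.4% in the difference between cell types and from 45.1% to 67.1% between GMP and LSK in Het, where the median difference of all rows became 0.16 (-0.16 in the difference between cell types). Of 1020 list counts under alternatives, 900 stayed within 1.5 times and 120 changed by more. Counts of 0 in both runs are among the 900, so that number overstates how stable the lists were. With all rows tested, limma's calls in GMP were lost for Cd244a (adjusted p = 0.0968), Cd84 (0.0919), Jak2 (0.0609) and Cbfb (0.0632). Those in LSK were lost for Selplg (0.0615), Src (0.059), Lynx1 (0.0547), Ly86 (0.0545), Sh2d1b1 (0.0533) and Sh2d1a (0.0511). With only the groups compared, Src (0.0897), Sh2d1a (0.0635) and Ptprj (0.0571) did not pass in LSK, nor did Src with array medians subtracted (0.0522).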

Other observations

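The Ly6 family, to which the Sca-1 gene belongs, was measured through 14 other genes, Ly6a itself not being analysed here. In KO LSK 0 rose and 2 fell (0 and 3 at an unadjusted p under 0.05), and in KO GMP 0 rose and 2 fell (0 and 7), with medians of -0.19 and -0.26 beside 0.010 and -0.017 over all rows. Of all rows, 4.71% were called lower in LSK and 2.57% in GMP. No share of all rows is given for the unadjusted counts. Ly6d, a marker of early lymphoid cells, fell in LSK from 7.03 ± 0.18 to 4.97 ± 0.26 (SD, n = 2; limma's adjusted p = 0.000424), and Lynx1 by 0.83 (difference -0.83, adjusted p = 0.0129), a call lost without Het LSK replicate 1 (0.0976) or KO LSK replicate 2 (0.0588). Ly6a2 fell in GMP from 8.13 ± 0.15 to 3.82 ± 0.69 (adjusted p = 0.00078); its LSK difference of -1.06 did not pass (0.262). Ly6e fell in GMP by 0.67 (adjusted p = 0.0103), lost when any GMP array was left out (0.0559 to 0.0955).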
